A study of Mus musculus with 384 samples.

Results

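Heat shock proteins and chaperones bind proteins that are not yet folded, or have lost their fold, and help them reach a working shape. The genes described here were chosen by symbol alone: the HSP70, HSP90, HSP110, HSP60, HSP10 and small heat shock families (symbols beginning Hspa, Hspb, Hspd, Hspe, Hsph or Hsp90), the J-proteins (Dnaja, Dnajb and Dnajc with a number), the chaperonin subunits Cct2 to Cct8 and their relatives, and Tcp1. This gave 82 of the 23420 gene symbols measured. By textbook role, 8 of them were counted as heat-inducible cytosolic genes, 6 as constitutive cytosolic HSP70, HSP90 and HSP110 genes, 8 as genes of the endoplasmic reticulum (ER), 8 as mitochondrial genes, 8 as subunits of the chaperonin TRiC, 32 as other J-proteins and 12 as the remainder.

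The families work in relays. J-proteins hand clients to HSP70 and start its ATP cycle, HSP110 proteins exchange its nucleotide, and HSP90 acts later on signalling proteins, among them kinases of the T cell receptor pathway. TRiC is a ring in the cytosol whose subunits are separate gene products, and it folds actin, tubulin and several cell cycle regulators; HSP60 with its HSP10 lid does similar work inside mitochondria. After heat or other stress the factor HSF1 binds heat shock elements and induces a part of these genes, whereas misfolded protein in the ER acts on another part through ER stress response elements.

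Expression was measured by Smart-seq2, which amplifies and sequences the whole length of transcripts from cells sorted one to a well, in T cells that had infiltrated B16F10 melanomas, a transplantable mouse skin tumour, in C57BL/6 mice. The design text names T cell genes induced by IL-27 in the tumour as the question. The 4 plates hold CD4 cells labelled IL27ra KO (the source named KO4), CD4 cells labelled wild type (WT, the source WT4), CD8 cells labelled IL27ra KO (KO4) and CD8 cells labelled WT (WT4), and each comprises 94 wells with a single cell, a population well and a well without a cell. All 4 groups share the strain and the tumour, and the labels name no promoter or cell type to which the deletion is limited. The treatment label speaks of CD8+ cells only, and the cell type was taken here from the sample titles. KO4 and WT4 were read as 1 source per genotype, which is an assumption, and under it genotype, source and plate cannot be told apart. No label says how many mice gave the cells of a source.

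Values are FPKM, fragments scaled to transcript length and library size, as normalized by the authors. Detection means 1 FPKM or more here. Only wells with 1000 or more detected genes entered, which were 78 KO-labelled and 74 WT-labelled CD4 cells and 77 KO-labelled and 72 WT-labelled CD8 cells, of 94 on each plate. Read depth is unknown. The kept cells had a median of 2091 detected genes on the KO-labelled and 2047 on the WT-labelled CD4 plate, and of 2243 on the KO-labelled and 2530.5 on the WT-labelled CD8 plate, with single cells between 1004 and 6233. The population libraries had 9918 to 10848 detected genes and the no-cell wells 6 to 26. Cd4 was detected in 91.03% and 89.2% of cells of the KO- and WT-labelled CD4 plates and in 1.3% and 0.0% of those of the CD8 plates, and Cd8a in 0.0% and 2.7% against 81.8% and 84.7%. The other chain of CD8, Cd8b1, was detected in 23.1% of KO- and 25.7% of WT-labelled CD4 cells, against 84.4% of KO- and 88.9% of WT-labelled CD8 cells. Its population values were 122.2 FPKM in KO-labelled and 5.34 FPKM in WT-labelled CD4 cells, against 2178 FPKM in KO-labelled and 2177 FPKM in WT-labelled CD8 cells. Foxp3, the factor of regulatory T cells, was detected in 47.4% of KO-labelled and 36.5% of WT-labelled CD4 cells. Il27ra itself did not separate the labels: 47.4% of KO-labelled and 36.5% of WT-labelled CD4 cells, and 57.1% of KO-labelled and 51.4% of WT-labelled CD8 cells, had it at 1 FPKM or more. A value for the whole gene can hold transcript from outside a deleted part, so it checks neither label, and the plates are called KO-labelled and WT-labelled throughout. Markers of other cell types were low in most cells and high in some. Of 5 melanoma genes 3 to 5 per plate were found in at least 1 cell. Their summed levels were 0 to 14139 FPKM per cell, with plate medians of 8.07 to 10.3 FPKM. Tyr was detected in 97.4% to 100% of cells per plate, whereas Dct was detected in 0.0% to 15.3%. Of 6 myeloid genes 5 or 6 were found, with a median of 0 FPKM on each plate and single cells up to 102060 FPKM. The B cell marker Ms4a1 and the NK marker Ncr1 were at 0 in every kept cell, and the stroma markers Col1a1 and Col3a1 were found on the KO-labelled CD8 plate alone, in at most 2.6% of cells. Of the same lists, the B cell marker Cd79a was detected in 0.0% to 2.7% of cells per plate, the NK marker Klrb1c in 1.35% to 9.09% and the endothelial marker Pecam1, which some leukocytes also express, in 16.7% to 25.7%. Cells with melanoma, myeloid, B cell or stroma markers other than Tyr and Pecam1 were left out in an alternative. It kept 56 of 78 KO-labelled and 48 of 74 WT-labelled CD4 cells, and 52 of 77 KO-labelled and 39 of 72 WT-labelled CD8 cells. The part of cells with Klrb1c or Pecam1 in the results was not tested.

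Promoter windows of 300 bases, from 250 before to 50 after the transcription start, were available for 67 of the 82 genes (RefSeq, GRCm38.p6). Of these, 4 are shown because they carry the heat shock and ER stress elements of the genes on which the results turn. Capitals mark the matches to the motifs searched on both strands. The 2-unit heat shock element was searched as GAANNTTC, the 3-unit form, which contains it, as GAANNTTCNNGAA, and the ER stress response element as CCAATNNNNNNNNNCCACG. Hspa1a (chr17:34972107-34972406, minus strand) encodes the strongly heat-inducible HSP70, Hspe1 (chr1:55087898-55088197, plus strand) the mitochondrial HSP10, Hspa5 (chr2:34771840-34772139, plus strand) the ER HSP70 BiP, and Hsp90b1 (chr10:86705395-86705694, minus strand) the ER HSP90 GRP94.
Hspa1a: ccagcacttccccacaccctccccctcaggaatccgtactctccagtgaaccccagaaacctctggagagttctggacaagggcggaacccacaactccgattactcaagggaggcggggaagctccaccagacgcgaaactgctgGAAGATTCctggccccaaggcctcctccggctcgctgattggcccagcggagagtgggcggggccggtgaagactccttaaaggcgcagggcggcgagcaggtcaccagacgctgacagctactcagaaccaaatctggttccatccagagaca
Hspe1: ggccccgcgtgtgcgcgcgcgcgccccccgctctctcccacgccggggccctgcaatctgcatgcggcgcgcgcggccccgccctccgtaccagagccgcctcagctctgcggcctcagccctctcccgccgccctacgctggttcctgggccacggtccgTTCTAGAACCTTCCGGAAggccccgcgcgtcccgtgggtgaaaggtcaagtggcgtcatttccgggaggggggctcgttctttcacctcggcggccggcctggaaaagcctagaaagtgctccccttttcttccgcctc
Hspa5: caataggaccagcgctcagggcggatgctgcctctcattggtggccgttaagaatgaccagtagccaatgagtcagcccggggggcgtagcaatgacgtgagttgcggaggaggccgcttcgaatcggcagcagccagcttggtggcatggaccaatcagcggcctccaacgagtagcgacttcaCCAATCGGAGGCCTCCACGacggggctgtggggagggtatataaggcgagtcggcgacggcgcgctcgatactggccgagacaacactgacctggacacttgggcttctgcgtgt
Hsp90b1: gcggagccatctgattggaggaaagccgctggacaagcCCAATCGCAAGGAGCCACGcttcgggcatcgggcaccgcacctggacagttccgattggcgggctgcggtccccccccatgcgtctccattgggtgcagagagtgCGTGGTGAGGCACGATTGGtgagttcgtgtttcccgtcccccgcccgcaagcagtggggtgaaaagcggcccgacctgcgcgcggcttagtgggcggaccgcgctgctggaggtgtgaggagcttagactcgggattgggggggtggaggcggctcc

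The 2-unit heat shock element was present in the windows of 5 of 7 heat-inducible genes, Hspa1a, Hspa1b, Hspb1, Dnaja1 and Hsph1, against 9.04% of 27025 genes with a window. The 3-unit form occurred in 0.662% of all genes and in 4 members, Hsph1, Hspd1, Hspe1 and the J-protein gene Dnajb6. Hspd1 and Hspe1 are read in opposite directions from a shared promoter: their windows overlap (chr1:55087898-55088182), and the capitals in the Hspe1 window are a run of 18 bases with 4 alternating units. The ER stress response element was in 0.137% of all windows and in 3 of 7 ER members, Hspa5, Hsp90b1 (at both marked places) and Dnajc3, a J-protein that restrains the ER stress kinase PERK. Of 7 TRiC windows, 1, that of Cct2, held a 2-unit heat shock element, and none held the other motifs. A match is a description of letters, and a missing match says only that these letters are not in the window.

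Across the kept cells the members separated into a few genes found in most cells and many found in few. Of the 82 genes, 6 were detected in at least 50% of cells on each plate: Hspa8, Hsp90ab1, Hspa5, Hsp90b1, Dnaja1 and Hspa4. On the other side, 33 were under 10% on all 4 plates and 11 were at 0 in every kept cell, among them Hspb1, Hspb3, Hspb8, Hspb9 and Hspa1l. Among the population libraries 15 members were listed at 0 in all 4. The members together took a median of 1.16% of a cell's FPKM on the KO-labelled and 1.12% on the WT-labelled CD4 plate, and 1.27% on the KO-labelled and 1.16% on the WT-labelled CD8 plate. The 95% intervals given with shares of cells are exact (Clopper-Pearson) and hold counting error alone. In bulk libraries such as the population wells, fewer cells that express a gene and less RNA per cell cannot be told apart.

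**Figure D1:**
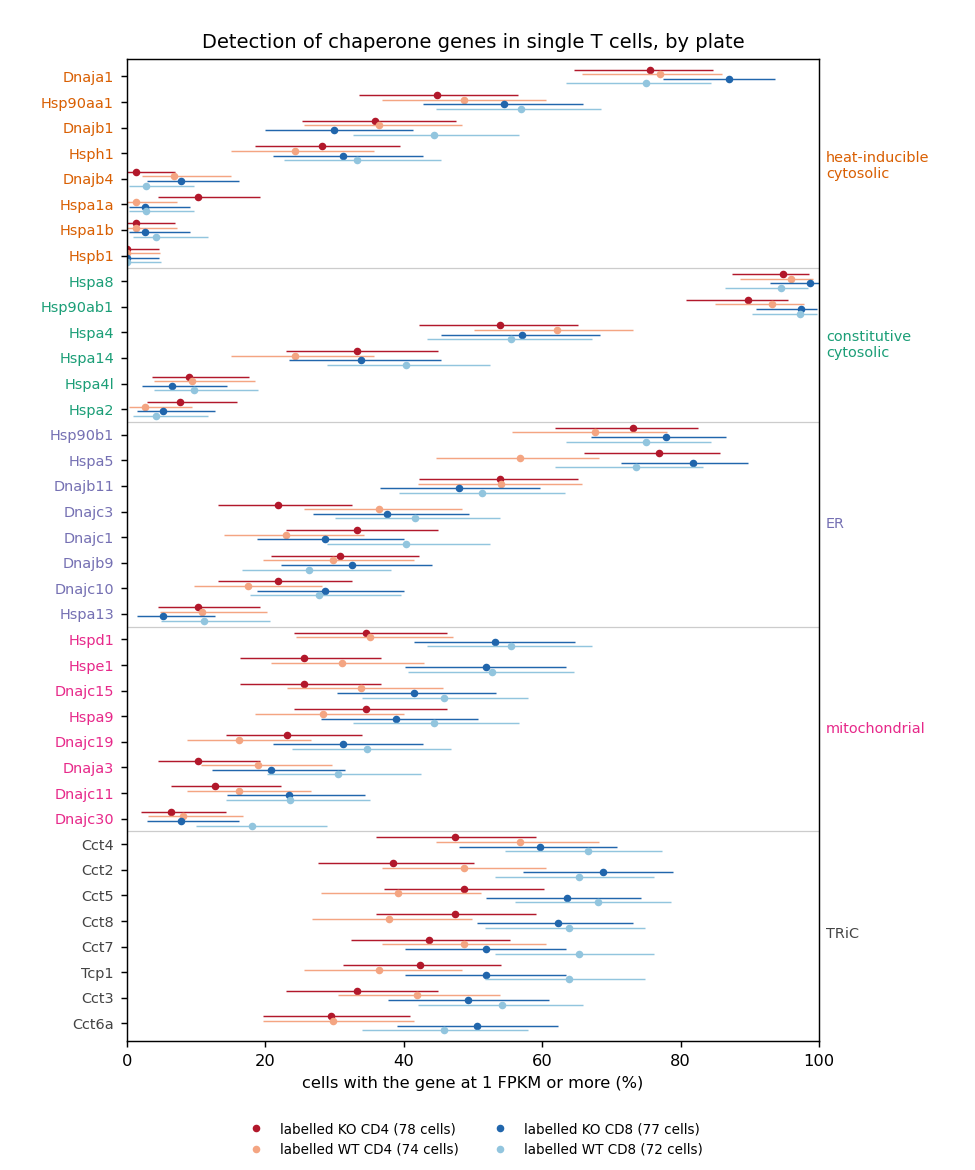
Share of cells (x axis, %) with each of 38 chaperone genes at 1 FPKM or more on the 4 plates, with exact 95% intervals as lines, grouped by class. Hspa8 and Hsp90ab1 lie at the right edge on every plate, Hspa1a, Hspa1b and Hspb1 at the left edge, and the TRiC genes lie further right on the CD8 plates.

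The constitutive cytosolic genes were led by Hspa8, the everyday HSP70 of the cytosol (HSC70). Its median over all kept cells was 2369 FPKM on the KO-labelled CD4 plate (range 0 to 18682), 2429 FPKM on the WT-labelled CD4 plate (0 to 10196), 2689 FPKM on the KO-labelled CD8 plate (0 to 10530) and 3250 FPKM on the WT-labelled CD8 plate (0 to 11703). It was detected in 94.9% (87.4 to 98.6) of KO-labelled and 95.9% (88.6 to 99.2) of WT-labelled CD4 cells, and in 98.7% (92.98 to 100) of KO-labelled and 94.4% (86.4 to 98.5) of WT-labelled CD8 cells. The highest single cell was on the KO-labelled CD4 plate. The population libraries gave 5608 FPKM for KO-labelled CD4, 4806 FPKM for WT-labelled CD4, 6938 FPKM for KO-labelled CD8 and 6106 FPKM for WT-labelled CD8. Of the 16 to 22 wells per plate left out for having fewer than 1000 genes, 4.5% to 17.6% held Hspa8.

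Hsp90ab1, the constitutive cytosolic HSP90, came next, with cell medians of 842 FPKM on the KO-labelled and 906 FPKM on the WT-labelled CD4 plate, and of 1076 FPKM on the KO-labelled and 1240 FPKM on the WT-labelled CD8 plate. In the population libraries it stood at 1930 FPKM in KO-labelled and 1865 FPKM in WT-labelled CD4 cells, and at 3101 FPKM in KO-labelled and 3407 FPKM in WT-labelled CD8 cells, so that both CD4 libraries lay below both CD8 libraries. The other constitutive genes were far lower. Hspa4, an HSP110-type exchange factor, was detected in 53.8% to 62.2% of cells per plate, and Hspa14, a ribosome-linked HSP70, in 24.3% to 40.3%. Hspa4l, a relative of Hspa4, was found in 6.5% to 9.7% and Hspa2, an HSP70 known from the testis, in 2.7% to 7.7%. In the population libraries Hspa2 had 28.4 FPKM in KO-labelled and 0.71 FPKM in WT-labelled CD4 cells, and 10.9 FPKM in KO-labelled and 7.12 FPKM in WT-labelled CD8 cells.

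The heat-inducible class did not behave as one group. Dnaja1, a J-protein partner of HSC70, was detected in 54 of 72 WT-labelled CD8 cells, the lowest share, and in 67 of 77 KO-labelled CD8 cells, the highest, and Hsp90aa1, the inducible HSP90, in 44.9% to 56.9%. Dnajb1 (HSP40), the J-protein induced together with HSP70, was detected in 29.9% to 44.4% of cells and the HSP110 gene Hsph1 in 24.3% to 33.3%. These genes were also present in every population library. Hsp90aa1 stood at 348.95 FPKM in KO-labelled and 352.7 FPKM in WT-labelled CD4 cells, and at 397.2 FPKM in KO-labelled and 361.97 FPKM in WT-labelled CD8 cells. Dnajb1 stood at 212.7 FPKM in KO-labelled and 201.06 FPKM in WT-labelled CD4 cells, and at 178.06 FPKM in KO-labelled and 178.8 FPKM in WT-labelled CD8 cells. By the ratio of highest to lowest library, these 2 genes varied least in the class.

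At the low end of the class, the J-protein gene Dnajb4 was detected in 1.3% to 7.8% of cells per plate. Hspb1 (HSP27) was at 0 in all cells, which allows a share of up to 3.85% to 4.17% per plate by a limit of 3 cells of the total, and up to 4.62% to 4.99% by the exact interval. Both limit cells with the gene at 1 FPKM or more and not cells that express it. Hspb1 was listed above 0 in 1 population library, WT-labelled CD8, at 3.62 FPKM. Hspa1b was detected in 1 to 3 cells per plate.

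Hspa1a, the classical marker of the heat shock response, was absent from most cells and high in a few. It was detected in 8 of 78 KO-labelled CD4 cells (10.3%, interval 4.5 to 19.2), 1 of 74 WT-labelled CD4 cells (1.4%, 0.0 to 7.3), 2 of 77 KO-labelled CD8 cells (2.6%, 0.3 to 9.1) and 2 of 72 WT-labelled CD8 cells (2.8%, 0.3 to 9.7). The 8 KO-labelled CD4 cells held between 27.2 and 5141 FPKM, the WT-labelled CD4 cell 1759 FPKM, the 2 KO-labelled CD8 cells 13.1 and 151.1 FPKM, and the 2 WT-labelled CD8 cells 237.3 and 14858 FPKM. The highest of these is above the highest Hspa8 value of its plate. Among these cells Dnajb1 was detected in 4 of 8 on the KO-labelled CD4 plate, the 1 on the WT-labelled CD4 plate, 0 of 2 on the KO-labelled CD8 plate and 1 of 2 on the WT-labelled CD8 plate. The 8 KO-labelled CD4 cells had a median of 2002 detected genes, against 2101.5 in the 70 without the gene.

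The population libraries spread widely, in the same order as these shares, 3 of which rest on 1 or 2 cells. Hspa1a stood at 149.5 FPKM in KO-labelled CD4 cells and was listed at 0 in WT-labelled CD4 cells, and it stood at 3.68 FPKM in KO-labelled and 123.9 FPKM in WT-labelled CD8 cells. Hspa1b was 1.32 FPKM in KO-labelled CD4 cells, 2.70 FPKM in WT-labelled CD8 cells and listed at 0 in the other libraries. Hspa1a was thus higher in opposite genotype labels of the 2 cell types, whereas Hspa1b, at 2.70 FPKM or less, stayed near the detection limit of 1 FPKM. Hspa1a and Hspa1b are near copies, with promoter windows that differ at 4 of 300 bases and transcripts with 91.8% identity over 2742 aligned bases, so how reads were divided between them is uncertain.

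**Figure D2:**
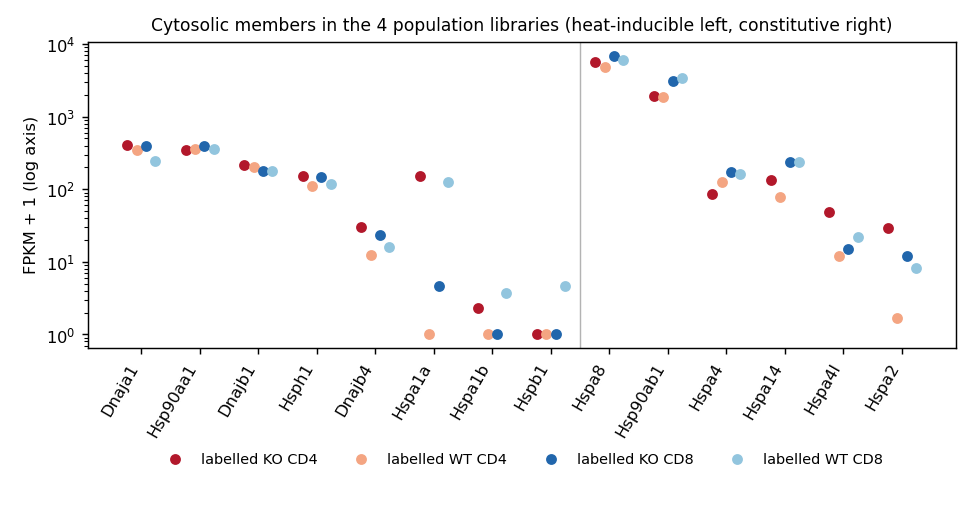
FPKM + 1 (log y axis) of the 14 cytosolic genes in the 4 population libraries, 1 point per library, heat-inducible genes left of the line and constitutive genes right of it. The 4 points of Dnaja1, Hsp90aa1, Dnajb1, Hsph1, Hspa8 and Hsp90ab1 lie close together, whereas those of Hspa1a run from 0 to 149.5 FPKM.

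Among the ER genes, Hspa5 (BiP), which holds nascent chains in the ER, and Hsp90b1 (GRP94), which folds integrins and Toll-like receptors, were the most widely detected. The middle 50% of cells held between 18.9 and 840.2 FPKM of Hspa5 on the KO-labelled CD4 plate, between 0 and 542 FPKM on the WT-labelled CD4 plate, between 127.6 and 862 FPKM on the KO-labelled CD8 plate and between 0.52 and 651 FPKM on the WT-labelled CD8 plate. It was detected in 76.9% (66.003 to 85.7) of KO-labelled and 56.8% (44.7 to 68.2) of WT-labelled CD4 cells, and in 81.8% (71.4 to 89.7) of KO-labelled and 73.6% (61.9 to 83.3) of WT-labelled CD8 cells. Thus the WT-labelled CD4 plate was the low one. In the cells that held it, the median was similar on all plates, at 595 FPKM for KO-labelled CD4, 502 FPKM for WT-labelled CD4, 532 FPKM for KO-labelled CD8 and 499 FPKM for WT-labelled CD8. Hsp90b1 was detected in 67.6% to 77.9% of cells per plate, with cell medians of 276.5 FPKM on the KO-labelled and 164.06 FPKM on the WT-labelled CD4 plate, and of 311.3 FPKM on the KO-labelled and 264.1 FPKM on the WT-labelled CD8 plate.

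The J-proteins that serve BiP were detected less widely: Dnajb11 in 48.1% to 54.1% of cells per plate, Dnajb9 in 26.4% to 32.5%, Dnajc1 in 22.97% to 40.3%, Dnajc3 in 21.8% to 41.7% and Dnajc10 in 17.6% to 28.6%. Hspa13, a microsome-associated HSP70, was found in 5.2% to 11.1%. Dnajb11 was detected about as often on all plates, but its median in cells that held it was 6.52 FPKM on the KO-labelled and 32.3 FPKM on the WT-labelled CD4 plate, against 255.15 FPKM on the KO-labelled and 229.05 FPKM on the WT-labelled CD8 plate.

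Of the mitochondrial genes, Hspd1 (HSP60) was detected in 34.6% (24.2 to 46.2) of KO-labelled and 35.1% (24.4 to 47.1) of WT-labelled CD4 cells, and in 53.2% (41.5 to 64.7) of KO-labelled and 55.6% (43.4 to 67.3) of WT-labelled CD8 cells. Its lid Hspe1 was detected in 25.6% (16.4 to 36.8) of KO-labelled and 31.1% (20.8 to 42.9) of WT-labelled CD4 cells, and in 51.9% (40.3 to 63.5) of KO-labelled and 52.8% (40.7 to 64.7) of WT-labelled CD8 cells. Hspa9 (mortalin), the HSP70 of the matrix, was found in 34.6% of KO-labelled and 28.4% of WT-labelled CD4 cells, and in 38.96% of KO-labelled and 44.4% of WT-labelled CD8 cells. Hspe1 was found more often in cells with Hspd1, and the part of the shared promoter in this was not tested. Hspe1 was detected in 48.1% of KO-labelled CD4 cells with Hspd1 and 13.7% of those without it, in 38.5% and 27.1% of WT-labelled CD4 cells, in 63.4% and 38.9% of KO-labelled CD8 cells and in 26 of 40 and 12 of 32 WT-labelled CD8 cells. Cells with Hspd1 had more detected genes on each plate, with medians of 2163.5 to 3104.5 against 2010.5 to 2155.5 in cells without it, and the part of this in the pairing was not tested.

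The TRiC subunits, which share 1 ring, were each found in part of the cells. On the KO-labelled CD4 plate they ran between 29.5% (Cct6a) and 48.7% (Cct5) of cells and on the WT-labelled CD4 plate between 29.7% (Cct6a) and 56.8% (Cct4). On the KO-labelled CD8 plate they ran between 49.4% (Cct3) and 68.8% (Cct2) and on the WT-labelled CD8 plate between 45.8% (Cct6a) and 68.1% (Cct5). In the cells that held Cct2, its median was 520 FPKM on the KO-labelled and 535 FPKM on the WT-labelled CD4 plate, and 422 FPKM on the KO-labelled and 491 FPKM on the WT-labelled CD8 plate.

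To ask how CD4 and CD8 cells of the tumour differed in these genes, the plate means of log2(FPKM + 1) were compared with limma, with the source as a block, over 8427 genes detected in at least 10% of cells of 1 plate or more. A difference on this scale carries both the share of cells with a gene and its level in them, and it understates changes of low genes. With 1 residual degree of freedom the fit takes its spread from all genes together, so its p-values measure the spread between 4 plates and not that between mice, and an exact permutation test of 2 plates against 2 cannot go below 0.333. Of the 49 members that passed this filter, 9 fell in CD4 cells and 0 rose at an adjusted p under 0.05 (Benjamini-Hochberg over all genes tested). Over all genes 6.32% fell and 1.12% rose, and the median gene differed by -0.27 log2. In all, 16 of the 49 members had an unadjusted p under 0.05, beside 1884 of all 8427 genes.

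The genes that fell in CD4 cells were mostly subunits of TRiC. Cct5 averaged 4.35 on the KO-labelled and 3.29 on the WT-labelled CD4 plate, against 5.73 on the KO-labelled and 6.06 on the WT-labelled CD8 plate, in log2(FPKM + 1), a difference of -2.08 (SE 0.57, limma adjusted p = 0.00994). Cct2 averaged 3.45 on the KO-labelled and 4.07 on the WT-labelled CD4 plate, against 5.85 on the KO-labelled and 5.62 on the WT-labelled CD8 plate, a difference of -1.98 (SE 0.57, limma adjusted p = 0.0148). Both CD4 plates were below both CD8 plates for these genes. Tcp1 differed by -1.83 (SE 0.54, limma adjusted p = 0.0195), Cct8 by -1.72 (SE 0.56, limma adjusted p = 0.0349) and Cct6a by -1.47 (SE 0.50, limma adjusted p = 0.0455). The other subunits pointed the same way without passing: Cct3 differed by -1.31, Cct7 by -0.99 and Cct4 by -0.92. All 8 subunits had both CD4 plates below both CD8 plates, a placement shared by 42.5% of all genes, and their median was -1.60. The share of cells with Cct5 was 48.7% (37.2 to 60.3) of KO-labelled and 39.2% (28.04 to 51.2) of WT-labelled CD4 cells, against 63.6% (51.9 to 74.3) of KO-labelled and 68.1% (56.01 to 78.6) of WT-labelled CD8 cells. In the cells that held Cct5 its median was 520 FPKM on the KO-labelled and 426 FPKM on the WT-labelled CD4 plate, against 504 FPKM on the KO-labelled and 611 FPKM on the WT-labelled CD8 plate.

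Both parts of the mitochondrial chaperonin also fell in CD4 cells. Hspe1 averaged 2.02 on the KO-labelled and 2.41 on the WT-labelled CD4 plate, against 4.09 on the KO-labelled and 4.03 on the WT-labelled CD8 plate, in log2(FPKM + 1), a difference of -1.84 (SE 0.49, limma adjusted p = 0.00772). Hspd1 averaged 2.93 on the KO-labelled and 2.74 on the WT-labelled CD4 plate, against 4.35 on the KO-labelled and 4.47 on the WT-labelled CD8 plate, a difference of -1.57 (SE 0.52, limma adjusted p = 0.0405). All 8 mitochondrial members were below 0, with a median of -0.94, and so were 6496 of all 8427 genes. Both CD4 plates lay below both CD8 plates for 7 of the 8, a placement shared by 42.5% of all genes. The last genes that fell were Dnajc9, a J-protein that escorts histones, by -1.77 (SE 0.48, limma adjusted p = 0.00833), and Hspb11, which is a part of the ciliary transport complex rather than a known chaperone, by -0.60 (SE 0.20, limma adjusted p = 0.0442). Hspb11 was found in 1 KO-labelled and 2 WT-labelled CD4 cells, against 4 KO-labelled and 9 WT-labelled CD8 cells, and it passed the filter through the WT-labelled CD8 plate alone.

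No heat-inducible, constitutive or ER gene passed the test. Hspa1a entered it through the KO-labelled CD4 plate alone. The median was -0.14 over the 5 heat-inducible genes measured, near the -0.27 of all genes, -0.50 over 4 constitutive genes and -0.54 over 8 ER genes. Hspa8 differed by -0.30 (SE 0.37) and Hsp90ab1 by -0.98 (SE 0.46). Dnajb1 differed by 0.03 (SE 0.47) and Hsp90aa1 by -0.61 (SE 0.54). Of the other J-proteins 15 were measured, with a median of -0.35.

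The population libraries, which are separate wells of the same sources, gave smaller differences in the same direction for both chaperonins, and no member passed their test. Of 11008 genes at 1 FPKM or more in at least 2 libraries, 0.0182% fell and 0.0182% rose in limma (2 genes each). Of 60 members tested 0 passed. An unadjusted p under 0.05 was found for 11 of the 60 members and for 1593 of the 11008 genes. All 8 TRiC genes had both CD4 libraries below both CD8 libraries, against 26.2% of all genes, with a median of -0.70 where the median gene was at -0.10. Cct5 was 493 FPKM in KO-labelled and 515 FPKM in WT-labelled CD4 cells, against 930 FPKM in KO-labelled and 965 FPKM in WT-labelled CD8 cells, a difference of -0.91 log2 (SE 0.28). Hspe1 was 114.7 FPKM in KO-labelled and 252.96 FPKM in WT-labelled CD4 cells, against 498 FPKM in KO-labelled and 499 FPKM in WT-labelled CD8 cells, a difference of -1.54 log2 (SE 0.37). Dnajc9 was 184.7 FPKM in KO-labelled and 220.7 FPKM in WT-labelled CD4 cells, against 380.7 FPKM in KO-labelled and 615 FPKM in WT-labelled CD8 cells. The heat-inducible median was -0.03 and the ER median -0.08 in these libraries.

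**Figure D3:**
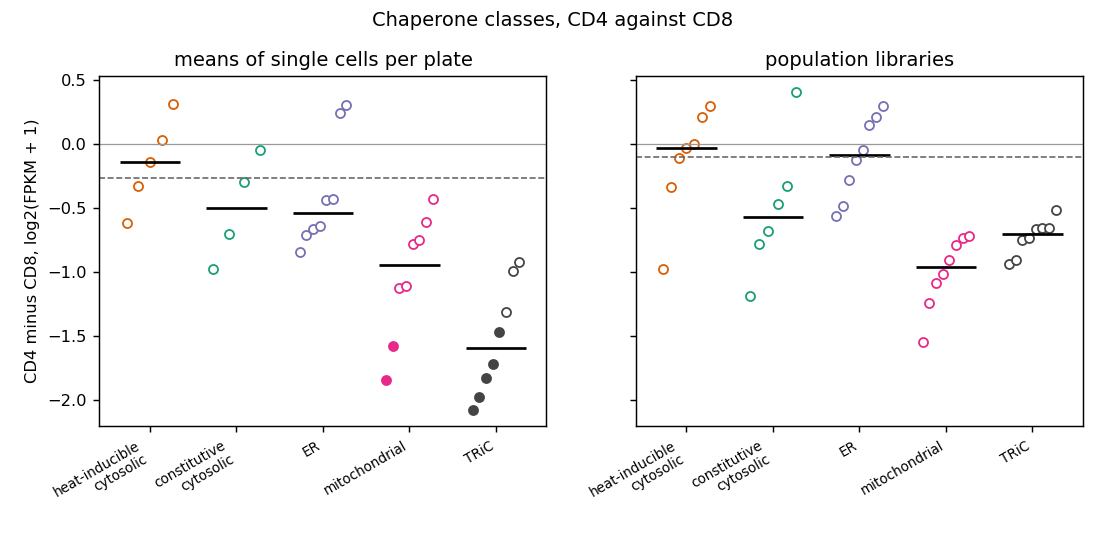
CD4 minus CD8 difference in log2(FPKM + 1) of the measured members, from the plate means of single cells (left) and the population libraries (right). Heat-inducible, constitutive, ER, mitochondrial and TRiC genes are drawn by class. The other J-proteins, with the called Dnajc9, and the remainder, with the called Hspb11, are not drawn. Filled points passed limma at an adjusted p under 0.05, open points did not, black bars are class medians and the dashed line is the median of all genes (-0.27 and -0.10). TRiC and mitochondrial genes lie below 0 in both panels.

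The calls changed with the weighting of cells and with other settings. CD8 cells had more detected genes, and with the plates weighted to the same distribution of detected genes 1 member, Hspe1, was called and the TRiC median was -0.67, while the median of all genes moved to -0.01. Centring the plates on the median of all genes gave 0 calls, as did leaving out the source block with all plates kept. A pseudocount of 10 or a minimum of 2000 genes per cell gave 0 calls as well. Cct5 relative to the median of all genes differed by -1.79 (limma adjusted p = 0.161). Fits without 1 plate also lacked the source block and held 1 plate of 1 cell type, so their calls are not given. The TRiC median stayed below 0 in each of them.

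Other lists of the same pathways were compared in the same fit. Of 15 cytosolic co-chaperones and heat shock factors 14 were measured and 0 passed, with a median of -0.51. Of 14 ER stress genes 14 were measured and 0 passed, with a median of -0.71, and of 7 genes of prefoldin and TRiC helpers, which deliver actin and tubulin to the ring, 6 were measured and 0 passed, with a median of -0.68. Of 16 cell cycle genes 6 fell, with a median of -0.92 over the list, and 5 of 12 measured immediate early genes rose, with a median of 1.19. The part of the cell cycle in the TRiC difference was not tested. On the KO-labelled CD4 plate, cells with at least 4 of the 16 cell cycle genes had a median of 4 TRiC subunits and other cells 3. On the WT-labelled CD4 plate both kinds of cells had 3. On the KO-labelled CD8 plate cells with the cell cycle genes had a median of 5 subunits and other cells 4. On the WT-labelled CD8 plate they had 7 and other cells 3, with medians of 2944 and 2071 detected genes.

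Within single cells the subunits of TRiC were rarely all found at once. A cell held a median of 3 of the 8 subunit genes on the KO-labelled and 3 on the WT-labelled CD4 plate, and of 4 on the KO-labelled and 5 on the WT-labelled CD8 plate. All 8 were found in 1.3% of KO-labelled and 1.4% of WT-labelled CD4 cells, against 9.1% of KO-labelled and 22.2% of WT-labelled CD8 cells. The summed TRiC level had a cell median of 1306 FPKM on the KO-labelled and 1362 FPKM on the WT-labelled CD4 plate, against 2072 FPKM on the KO-labelled and 2079 FPKM on the WT-labelled CD8 plate. The mean log level of the 8 genes followed the number of detected genes of the cell, with a Pearson r across cells of 0.67 (78 cells, KO-labelled CD4), 0.64 (74 cells, WT-labelled CD4), 0.77 (77 cells, KO-labelled CD8) and 0.86 (72 cells, WT-labelled CD8). These cells share a plate and differ in depth, so the values describe the plates only. For the heat-inducible genes the same r was 0.29 on the KO-labelled and 0.12 on the WT-labelled CD4 plate, and 0.42 on the KO-labelled and 0.61 on the WT-labelled CD8 plate.

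**Figure D4:**
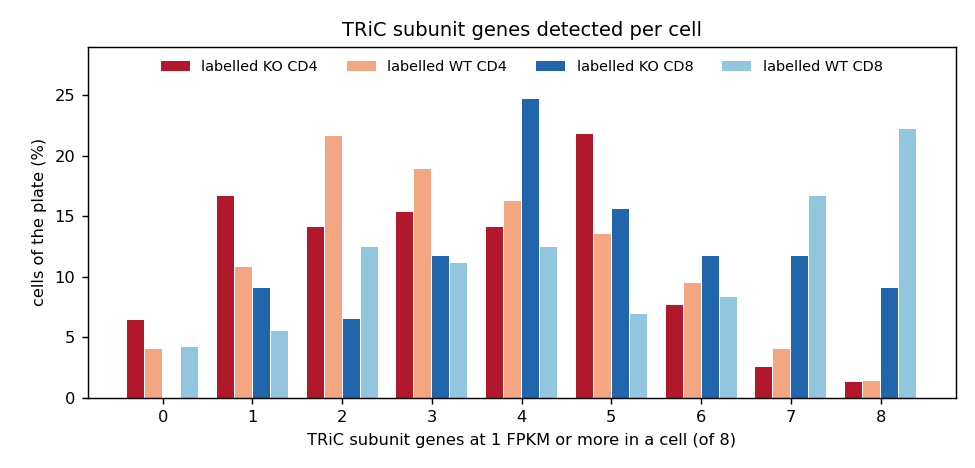
Share of cells (y axis, %) by the number of TRiC subunit genes, 0 to 8, found at 1 FPKM or more in the cell (x axis), with 1 bar per plate. The CD8 plates have more cells at 7 and 8 subunits, and all 8 were found in 22.2% of WT-labelled CD8 cells.

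The genotype labels were compared within each cell type as differences of plate means, with no test, since there is 1 plate per label. A difference of 1 log2 or more was counted. In CD4 cells 7063 genes were measured, of which 2.53% were higher and 2.51% lower on the KO-labelled plate by that much. Of 45 members, 3 were higher and 0 lower. Hspa5 averaged 6.94 on the KO-labelled and 5.03 on the WT-labelled CD4 plate in log2(FPKM + 1), a difference of 1.91, Dnajc7, a J-protein that binds both HSP70 and HSP90, 4.15 and 2.89, a difference of 1.26, and Cct5 4.35 and 3.29, a difference of 1.06. In the population libraries the KO minus WT difference in CD4 cells was 0.34 for Hspa5, -0.38 for Dnajc7 and -0.06 for Cct5. Thus Hspa5 kept its sign there at a smaller size, and the other 2 did not. With the log2 of the arithmetic mean the 3 differences were 0.70 for Hspa5, 0.75 for Dnajc7 and 0.68 for Cct5, none past 1 log2. Of the further J-proteins, Dnajc9 differed by 0.72 and Dnajc19, a J-protein of the mitochondrial import motor, by 0.49 in CD4 cells. At the other end stood Dnajb13 at -0.76, the splicing-associated Dnajc8 at -0.67 and Dnajc5, the cysteine string protein of secretory vesicles, at -0.64. The CD4 population libraries gave 0.61 for Dnajc19 and -0.60 for Dnajc5. They reversed the sign of Dnajc9 (-0.26), Dnajb13 (0.32) and Dnajc8 (0.06).

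In CD8 cells 8117 genes were measured, of which 2.07% were higher and 9.19% lower on the KO-labelled plate by 1 log2 or more, with a median of -0.22 over all genes. Of 48 members, 0 were higher and 2 lower. Tcp1 averaged 4.34 on the KO-labelled and 5.59 on the WT-labelled CD8 plate in log2(FPKM + 1), a difference of -1.24, and Cct7 4.34 and 5.43, a difference of -1.09. The population libraries gave smaller sizes: Tcp1 differed by -0.23 and Cct7 by -0.63. With both CD8 plates weighted to the same distribution of detected genes Tcp1 and Cct7 were no longer past 1 log2, and the TRiC median was 0.62, against -0.46 without the weights, beside 0.02 for all genes. With the log2 of the arithmetic mean Tcp1 differed by -0.59 and Cct7 by -0.58. Of the further J-proteins, Dnajc18 differed by 0.37, Dnajb12, a J-protein of the ER membrane, by 0.21 and Dnajc7 by 0.18. At the other end stood Dnajc5 at -0.89, the ribosome-bound Dnajc2 at -0.77 and the mitochondrial Dnajc30 at -0.75. The CD8 population libraries gave 1.14 for Dnajc18, -0.58 for Dnajb12 and 0.635 for Dnajc7. They gave 0.11 for Dnajc5, 0.31 for Dnajc2 and 0.39 for Dnajc30, so the sign was reversed for these 3 and for Dnajb12.

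By class, the ER genes had a median KO minus WT difference of 0.15 in CD4 cells and 0.31 in CD8 cells, and in the population libraries of 0.43 in CD4 and 0.30 in CD8 cells. The heat-inducible genes had medians of -0.14 in CD4 and -0.26 in CD8 cells, and of 0.47 in CD4 and 0.06 in CD8 population libraries. The median of all genes was -0.04 in CD4 and -0.22 in CD8 cells, and 0.01 and 0.05 in the population libraries. Over the alternatives, which include these libraries, the ER median ran from 0.065 to 0.58 in CD4 and from -0.135 to 0.69 in CD8 cells. The heat-inducible median ran from -0.33 to 0.47 in CD4 and from -0.62 to 0.58 in CD8 cells. Over the ER stress list the median was 0.17 in CD4 and -0.71 in CD8 cells, and 0.41 in CD4 and 0.09 in CD8 population libraries. Calr, the ER lectin chaperone calreticulin, averaged 5.09 on the KO-labelled and 3.26 on the WT-labelled CD4 plate, a difference of 1.83, and 4.94 on the KO-labelled and 5.11 on the WT-labelled CD8 plate, a difference of -0.17. It was picked after its values were seen. Its population values were 774 FPKM in KO-labelled and 244.9 FPKM in WT-labelled CD4 cells, and 829 FPKM in KO-labelled and 331.2 FPKM in WT-labelled CD8 cells. The immediate early genes had a median difference of 2.05 in CD4 and 1.64 in CD8 cells, and the cell cycle genes of -0.17 in CD4 and -1.31 in CD8 cells, and the part of either in these values was not tested.

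Differences of 1 log2 or more were more common between the population libraries, which are single wells with another gene filter. The reason was not tested. In CD4 cells 22.6% of 11344 genes were higher and 20.8% lower in the KO-labelled library by 1 log2 or more, and of 64 members 9 were higher and 8 lower. In CD8 cells 18.6% of 11761 genes were higher and 14.9% lower, and of 63 members 4 were higher and 6 lower. The shares of members were thus below those of all genes in both directions. In both cell types Dnajc16 and Dnajc21 were lower by 1 log2 or more in the KO-labelled library, with Dnajc21, a J-protein of ribosome assembly, listed at 0 FPKM in KO-labelled and at 14.8 FPKM in WT-labelled CD4 cells, and at 1.67 FPKM in KO-labelled and 8.75 FPKM in WT-labelled CD8 cells.

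**Figure D5:**
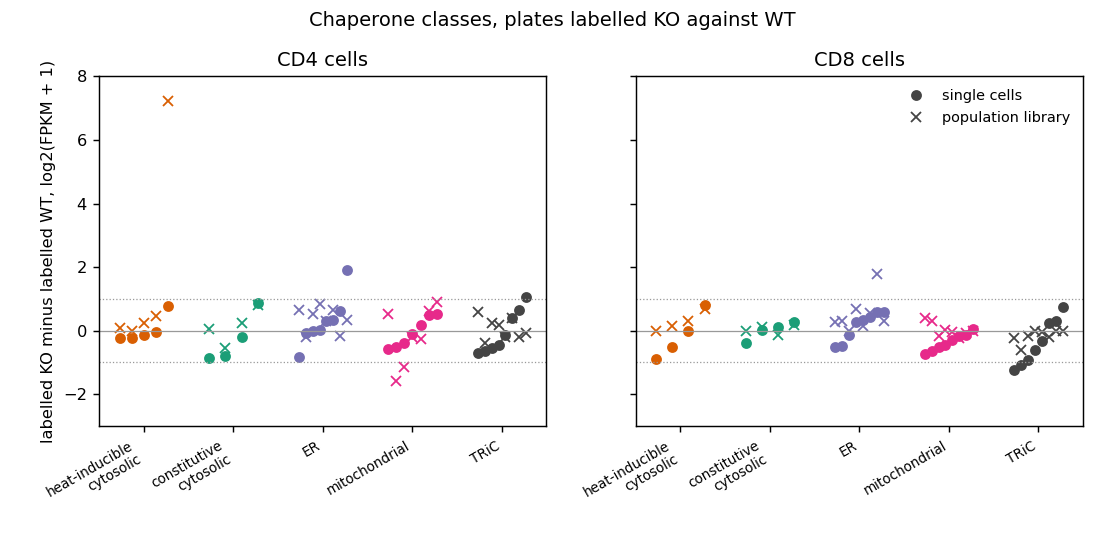
KO-labelled minus WT-labelled difference in log2(FPKM + 1) of members measured in the cells, in CD4 (left) and CD8 cells (right). Heat-inducible, constitutive, ER, mitochondrial and TRiC genes are drawn by class. The other J-proteins, Dnajc7 among them, and the remainder are not drawn. Points are plate means of single cells, crosses the population libraries and dotted lines mark 1 log2 either way. Hspa5 is the highest point in CD4 cells at 1.91, and the cross at 7.23 is Hspa1a. Hspa1a passed the filter through the KO-labelled CD4 plate alone. It is not drawn in CD8 cells, where its population difference was -4.74.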

How the data were processed

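Single T cells of B16F10 tumours were profiled by Smart-seq2 on 4 plates, with 384 wells in 1 table. The deposited values are FPKM after TMM scaling, made by the authors. The submitters' processing notes name RSEM, Bowtie and build mm10, without versions. RSEM shares out by estimate the reads that match more than 1 gene, so near copies such as Hspa1a and Hspa1b are uncertain. The table gives no read counts, so no count model was used and depth is described by detected genes.

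Cells with 1000 or more genes at 1 FPKM or more were kept and averaged per plate as log2(FPKM + 1). No pair of cells on a plate had r over 0.99 (0 pairs). CD4 and CD8 plates, and separately the 4 population libraries, were compared with limma 3.58.1 in R 4.3.3 (lmFit and eBayes with trend, source as a block, Benjamini-Hochberg over all genes tested, threshold 0.05). Genes at 1 FPKM in at least 10% of kept cells of 1 plate, or in at least 2 population libraries, entered. The prior degrees of freedom of the plate fit were infinite. KO- and WT-labelled plates, 1 per cell type, were compared as differences with no test. Gene positions in the results come from GENCODE M21 (GRCm38, the assembly of mm10), and promoter windows from RefSeq.

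Members, classes and lists were chosen with earlier results of these data known. Named are all heat-inducible, constitutive, ER and TRiC members, the mitochondrial HSP60, HSP10 and HSP70, every member called in either fit, and of the other members the 3 widest KO minus WT differences in each direction per cell type. Members named outside this rule, such as Dnajb6, Dnajc16, Dnajc21, Hspa1l and the small heat shock genes at 0, were picked after their values were seen. The alternatives were other pseudocounts (0.1 and 10), gene and cell filters, arithmetic means, other sets of cells, weights for detected genes, centring and no source block. Each plate or population library was also left out in turn, in fits without the source block.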

Additional observations from a re-analysis of the deposited data

Results flagged for a closer look

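Hspa1a differed in opposite directions between the genotype labels of the 2 cell types in the population libraries. The KO minus WT difference in log2(FPKM + 1) was 7.23 in CD4 and -4.74 in CD8 cells. Hspa1b, its near copy, was low in every library and differed by 1.21 in CD4 and -1.89 in CD8 cells. Each value compares 1 library with 1 library, and the difference between the cell types was not tested. In the single cells Hspa1a was detected in 10.3% of KO-labelled and 1.4% of WT-labelled CD4 cells, and in 2.6% of KO-labelled and 2.8% of WT-labelled CD8 cells.

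Hsp90ab1 stood at 828 FPKM in the no-cell well of the WT-labelled CD4 plate, a well with 26 detected genes. No other member was detected in a no-cell well. The cell median of Hsp90ab1 on that plate was 906 FPKM.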

How the results depend on the processing

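The 9 members called lower in CD4 cells on the plate means became 0 with a pseudocount of 10, with cells of 2000 or more genes, without the source block and with plate means centred on the median of all genes. They became 1 with arithmetic means (Hspb11), with cells matched on detected genes (Hspe1) and without cells holding markers of other cell types (Cct5). A filter at 25% of cells gave 3 and no filter gave 5. Fits without 1 plate also lacked the source block and held 1 plate of 1 cell type, so their calls are not counted. The cause of the changes was not tested. A pseudocount of 0.1 gave 8 members, beside 592 of 8427 genes. The TRiC median stayed below 0 in all 14 alternatives (-2.24 to -0.45), as did the mitochondrial median (-1.34 to -0.52). With all 4 population libraries kept, 0 members were called in each alternative except no filter. That one gave 3 (Dnajc15, Dnajc9 and Hspe1), beside 592 of 13270 genes.

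Of members past 1 log2 by genotype label, those lower in CD8 cells (2) became 8 with a pseudocount of 0.1, 0 with 10, 4 with cells of 2000 or more genes, 3 with arithmetic means (Dnajb13, Dnajc27 and Hspb11, neither Tcp1 nor Cct7), 9 without marker cells, 0 when matched, 1 when centred and 6 in the population libraries. Those higher in CD8 cells (0, beside 2.07% of all genes) became 1 (4.3%) with a pseudocount of 0.1 and 1 (8.22%) with arithmetic means. They became 7 (4.62%) when matched, 1 (3.46%) when centred and 4 (18.6%) in the population libraries. Those lower in CD4 cells (0, beside 2.51% of all genes) became 4 (8.41%) with a pseudocount of 0.1. They became 3 (5.85%) with cells of 2000 or more genes and 1 (11.1%) with arithmetic means. They became 3 (3.31%) without marker cells, 1 (4.91%) without Foxp3 cells and 8 (20.8%) in the population libraries. Those higher in CD4 cells (3, beside 2.53% of all genes) became 5 (6.07%) with a pseudocount of 0.1 and 1 (0.665%) with 10. With arithmetic means they became 2 (8.48%), Dnajb12 and Hspa1a, none of the 3. With cells of 2000 or more genes they became 2 (4.64%), Cct5 and Hspa5. Without marker cells they became 2 (5.09%), Dnajc7 and Hspa5. They became 5 (3.85%) when matched, 12 (5.44%) without Foxp3 cells and 9 (22.6%) in the population libraries. In the population libraries Cct5 (-0.062) and Dnajc7 (-0.382) were reversed in CD4 cells. Hspa5 stayed above 0 in CD4 cells in all 11 alternatives (0.34 to 2.75).

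The removal of marker cells with all markers left 2 cells and was not run. It was replaced, after seeing the data, by one without Tyr and Pecam1. The groups share no replicate numbers, so CD4 and CD8 plates were paired by source alone, the block of the reported fit. Read depth is unknown, and the number of detected genes per cell limits what can be seen of genes found in few cells.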
